A study of Arabidopsis thaliana with 12 samples.

Results

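The nuclear genes of Arabidopsis thaliana that encode the light-harvesting antenna, the photosystem subunits and the Rubisco small subunit were followed in seedlings 6 h after isoxaben, the peptide PEP3 or both. They were chosen by Arabidopsis gene identifier from what they encode, but with earlier results of these data known. They number 42 of the 32833 genes in the table. There are 4 antenna genes of photosystem I (LHCA), 9 genes of the major antenna of photosystem II (LHCB1 to LHCB3), 5 of its minor antenna (LHCB4 to LHCB6), 8 photosystem II subunits (PSB), 11 photosystem I subunits (PSA), and 5 Rubisco genes, which are the 4 small subunit genes (RBCS) and Rubisco activase (RCA). Of the 42 genes, 41 were tested, and LHCB1.5, which is listed at 0 in all 12 libraries, was not.

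Each library was made from whole Col-0 seedlings that were 10 days old and had been grown in liquid medium containing sucrose, several plants to a well. The 4 treatments were 600 nM isoxaben, 10 nM PEP3, 600 nM isoxaben together with 10 nM PEP3, and the DMSO mock, with 3 libraries each. DMSO was present in equal amount in every treatment, and all groups carried the same genotype. Isoxaben is a herbicide that stops cellulose synthesis at the plasma membrane. PEP3 is a plant elicitor peptide, a fragment of a precursor protein that cells perceive through the receptor kinases PEPR1 and PEPR2. Expression was measured by poly(A)-selected RNA sequencing as FPKM, a fragment count divided by gene length and by library depth, which allows levels to be compared between genes. Between 16995775 and 22793764 fragments were assigned to genes in each library, and the 41 tested genes had from 161 to 454283 fragments per library behind their values.

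Photosystem II splits water and photosystem I reduces ferredoxin in the thylakoid membrane. Both are fed by chlorophyll-binding antenna proteins, and Rubisco fixes carbon dioxide in the stroma with the energy they supply. The antenna proteins, the peripheral photosystem subunits and the Rubisco small subunit are encoded in the nucleus, while the reaction centre cores and the Rubisco large subunit are encoded in the plastid. Nuclear photosynthesis genes are known for their strong common response to light and to the state of the plastid, which acts in part through the G-box, the I-box and the GARP-family transcription factors GLK1 and GLK2.

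The 250 bases upstream of each annotated start were searched on both strands for the G-box CACGTG, the I-box GATAAG and the letters CCAATC. The last have been linked to GLK factors, whose binding to them was not examined here. The sequences come from the RefSeq genome of build TAIR10.1, in which all 42 genes have the same start and end as in the deposited table. A G-box was present upstream of 9 of the 42 genes (21.4%), against 7.23% of 19523 tested protein-coding genes. I-box letters were present upstream of 11 genes (26.2%), against 12.2%, and CCAATC upstream of 12 genes (28.6%), against 10.5%. At least 1 of the 3 motifs stood upstream of 20 genes (47.6%), against 26.8% of the tested protein-coding genes, and 0 matches overlapped another. By class, CCAATC was found upstream of 3 of 4 LHCA genes and 5 of 9 major antenna genes, and upstream of 0 of 11 photosystem I subunit genes. These matches describe the letters in the window and do not show that a factor was bound. Letters further upstream or inside the annotated gene span were not searched.

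Below are 6 of these windows, each written 5′ to 3′ toward the gene in lower case with the motif letters of either strand in capitals. RBCS2B (chr5:15382072-15382321, minus strand) and RBCS1A (chr1:25049668-25049917, minus strand) are shown because, among the small subunit genes, they had the lowest and the highest log2 change after isoxaben. LHCB1.4 (chr2:14524357-14524606, plus strand) was the gene that was higher with PEP3, LHCB2.1 (chr2:1824481-1824730, minus strand) and PSAH2 (chr1:19454548-19454797, plus strand) were higher with both treatments than with isoxaben alone, and LHCA4 (chr3:17495034-17495283, minus strand) had the lowest log2 change after isoxaben of the LHCA genes. The windows of RBCS1A and LHCB1.4 hold none of the 3 motifs, while that of RBCS2B holds 1 G-box between 2 of its 3 I-boxes. Those of RBCS1B, RBCS3B and LHCB1.1, which are not shown and fell after isoxaben, also hold none. Whether the motifs go with the changes was not tested.
RBCS2B: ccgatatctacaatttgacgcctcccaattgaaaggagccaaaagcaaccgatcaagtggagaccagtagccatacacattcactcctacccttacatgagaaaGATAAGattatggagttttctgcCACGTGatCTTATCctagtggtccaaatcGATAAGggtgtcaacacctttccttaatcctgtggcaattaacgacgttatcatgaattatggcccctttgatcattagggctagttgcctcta
RBCS1A: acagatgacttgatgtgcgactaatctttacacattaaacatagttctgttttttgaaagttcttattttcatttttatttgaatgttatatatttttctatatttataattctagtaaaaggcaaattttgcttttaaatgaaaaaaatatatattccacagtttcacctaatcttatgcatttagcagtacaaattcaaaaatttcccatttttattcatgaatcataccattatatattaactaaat
LHCB1.4: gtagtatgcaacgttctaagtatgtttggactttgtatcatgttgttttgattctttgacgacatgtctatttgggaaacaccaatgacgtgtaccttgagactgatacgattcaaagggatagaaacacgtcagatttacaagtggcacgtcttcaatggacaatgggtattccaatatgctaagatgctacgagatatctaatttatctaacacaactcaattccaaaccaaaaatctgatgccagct
LHCB2.1: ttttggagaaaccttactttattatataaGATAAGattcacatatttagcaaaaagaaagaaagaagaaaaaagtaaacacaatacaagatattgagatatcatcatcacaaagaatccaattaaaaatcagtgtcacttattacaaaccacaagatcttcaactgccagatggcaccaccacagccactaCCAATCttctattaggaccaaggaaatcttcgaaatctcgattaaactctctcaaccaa
PSAH2: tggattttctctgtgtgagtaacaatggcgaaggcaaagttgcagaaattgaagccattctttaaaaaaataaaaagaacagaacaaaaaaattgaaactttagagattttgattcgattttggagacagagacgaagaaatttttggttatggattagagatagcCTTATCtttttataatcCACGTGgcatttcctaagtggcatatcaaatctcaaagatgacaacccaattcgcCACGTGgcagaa
LHCA4: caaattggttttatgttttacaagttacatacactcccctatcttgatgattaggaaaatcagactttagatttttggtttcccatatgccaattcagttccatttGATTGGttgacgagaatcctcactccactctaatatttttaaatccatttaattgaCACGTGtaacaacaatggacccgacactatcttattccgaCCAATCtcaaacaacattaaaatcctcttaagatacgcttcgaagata

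Positions below are those of the deposited table, 1-based, in TAIR10. The levels of the 42 genes spanned from 0 to 16613 FPKM. RBCS1A (AT1G67090, chr1:25048158-25049667) was the most abundant, with 15149, 13564 and 14483 FPKM with isoxaben, 16296, 15429.6 and 15018 FPKM with PEP3, 15020.4, 14669.7 and 14419 FPKM with both, and 16613, 16114 and 16192 FPKM with DMSO. LHCB1.3 (AT1G29930, chr1:10477885-10479114) led the antenna, with 2539.8, 2780.1 and 2214 FPKM with isoxaben, 3646, 2678 and 2339.8 FPKM with PEP3, 2430.3, 3458 and 3652 FPKM with both, and 4132, 3652 and 3405 FPKM with DMSO. At the low end, LHCB2.3 (AT3G27690, chr3:10255906-10257489) had 8.04, 11.3 and 6.38 FPKM with isoxaben, 13.4, 8.11 and 8.44 FPKM with PEP3, 7.61, 11.5 and 10.2 FPKM with both, and 18.7, 13.5 and 15.7 FPKM with DMSO, and LHCB1.5 (AT2G34420) was listed at 0 in all 12 libraries. All 3 expressed genes were lower in every isoxaben library than in any DMSO library, while PEP3 libraries of RBCS1A and LHCB1.3 reached into the DMSO range. The whole span of LHCB1.5 is covered by AT2G08665, annotated on the opposite strand and also listed at 0. Whether fragments were counted by strand is not known from the labels.

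Summed over the 42 genes, the expression of this gene group was lower after every treatment. The sum was 40376, 38240.1 and 38546 FPKM with isoxaben, 48538, 43159 and 41034 FPKM with PEP3, 39975, 43591 and 44343 FPKM with both, and 55274, 51595 and 50422.7 FPKM with DMSO. All 9 treated libraries were below the 3 DMSO libraries, and the 3 isoxaben libraries overlapped with those of the combined treatment. As a share of the summed FPKM of all genes this was 5.89% to 6.27% with isoxaben, 6.59% to 7.51% with PEP3, 6.19% to 6.80% with both, and 7.98% to 8.53% with DMSO. The mean sum relative to DMSO was 0.745 with isoxaben, 0.844 with PEP3 and 0.813 with both. In libraries of whole seedlings, fewer green cells and less of these transcripts per cell cannot be told apart.

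**Figure D1:**
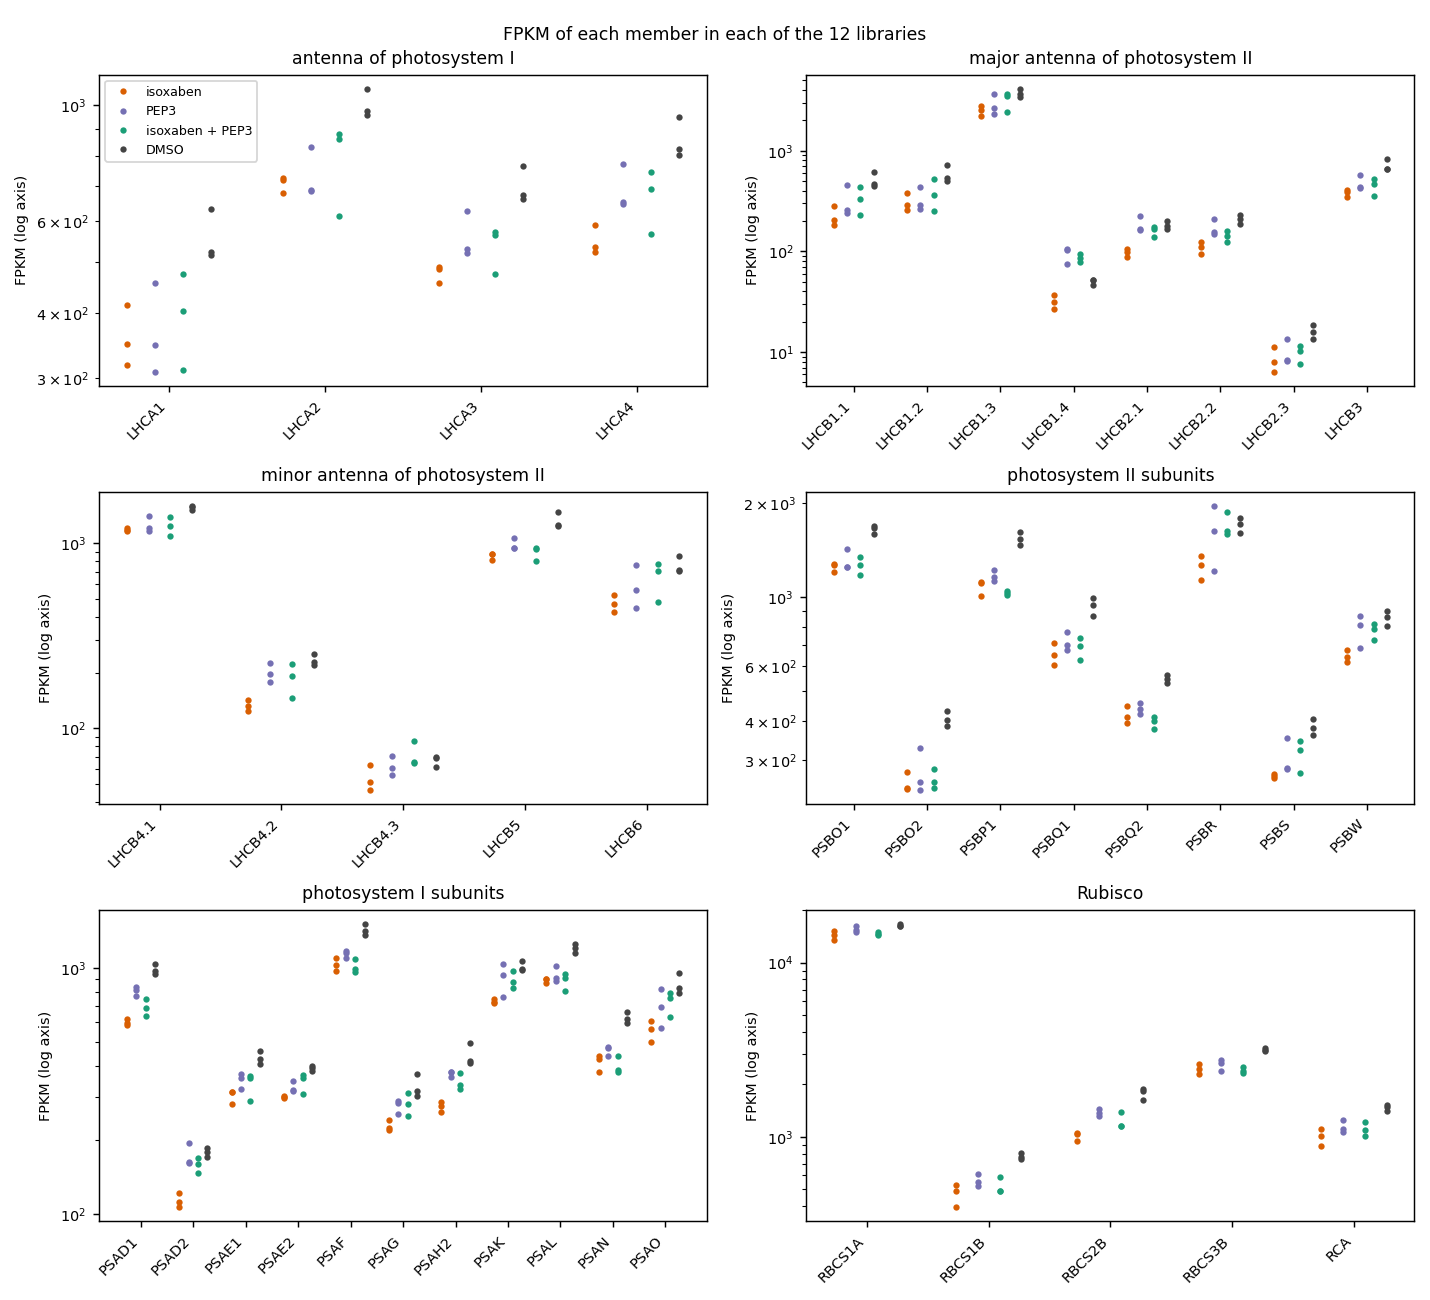
FPKM of each of the 41 detected genes in each of the 12 libraries, by class, on log axes that differ between panels, with the 3 libraries of each treatment as points. Isoxaben libraries lie below the DMSO libraries for 40 of the 41 genes, and LHCB1.4 is the gene whose PEP3 and combined libraries lie above those of DMSO.

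After isoxaben, nearly the whole photosynthetic gene group was lower than with DMSO. Of the 41 tested genes, 39 fell and 0 rose by limma at an adjusted p under 0.05 (41 lower and 0 higher at an unadjusted p under 0.05), while 15.2% of the 20248 tested genes fell and 17.3% rose (32.5% in either direction). At the unadjusted threshold, 4034 of the 20248 genes were lower and 4338 higher. The median log2 change of the 41 genes was -0.57, or 0.673 of the DMSO level, against -0.01 over all tested genes. All 3 isoxaben libraries lay below all 3 DMSO libraries for 40 of the 41 genes, a pattern seen in 22.2% of all tested genes. RBCS1A and LHCB4.3 did not pass the test. The log2 changes are differences of log2(FPKM + 1) given with their standard error (SE), from limma with Benjamini-Hochberg adjustment over all tested genes.

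The major antenna of photosystem II had the lowest class median after isoxaben, -0.90, and all 8 of its tested genes fell. These genes encode the trimeric light-harvesting complex that binds the largest pool of chlorophyll in the thylakoid. LHCB1.1 (AT1G29920, chr1:10474656-10475969) had 204, 285 and 182 FPKM with isoxaben, 458, 256 and 239 FPKM with PEP3, 231, 439 and 334 FPKM with both, and 618, 444 and 466 FPKM with DMSO. Its isoxaben libraries did not overlap with those of DMSO, and the log2 change was -1.19 ± 0.26, adjusted p = 0.00301. LHCB3 (AT5G54270, chr5:22038165-22039568), another type of trimer subunit, had 386, 406 and 350.0 FPKM with isoxaben, 578, 434 and 426 FPKM with PEP3, 358, 522 and 466 FPKM with both, and 827, 655 and 663 FPKM with DMSO. It also fell in every isoxaben library, with a log2 change of -0.90 ± 0.14, adjusted p = 0.000275. LHCB2.1 (AT2G05100, chr2:1822990-1824480), whose protein takes part in state transitions, had 97.8, 106 and 87.7 FPKM with isoxaben, 227, 168 and 162 FPKM with PEP3, 140.4, 176 and 168 FPKM with both, and 199.8, 167 and 180.0 FPKM with DMSO. The isoxaben libraries stood apart from all 9 others, and the log2 change was -0.90 ± 0.12, adjusted p = 7.91e-05. Its near copy LHCB2.2 changed by -0.93 ± 0.13, LHCB1.2 by -0.93 ± 0.25, LHCB2.3 by -0.85 ± 0.21 and LHCB1.4 by -0.65 ± 0.13. The smallest fall of the class was that of LHCB1.3, its most abundant gene, at -0.57 ± 0.17, adjusted p = 0.019. Without DMSO replicate 1 the adjusted p of LHCB1.2 was 0.058, and the highest adjusted p of LHCB1.3 with 1 library left out was 0.0801.

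Some of these genes are close copies whose fragments can be divided between them in counting. LHCB1.1, LHCB1.2 and LHCB1.3 lie next to each other on chromosome 1 and are 94.1% to 96.1% identical where they align. LHCB2.1 and LHCB2.2 are 92.2% identical, and RBCS1B and RBCS3B, neighbours on chromosome 5 with RBCS2B between them, are 91.2% identical. RBCS1A and RBCS2B are 90.4% identical where they align, over 38.3% of the RBCS1A span and 49.9% of the RBCS2B span. The values of single copies are therefore uncertain. With such copies summed into 1 feature each, the LHCB1.1 to LHCB1.3 sum changed by -0.67 and the LHCB2.1 plus LHCB2.2 sum by -0.92 after isoxaben, and both were still called. RBCS1A was not joined to RBCS2B in these sums.

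The minor antenna proteins join the trimers to the photosystem II core, and 4 of their 5 genes fell after isoxaben (class median -0.62). LHCB4.1 (AT5G01530, chr5:208866-210548), which encodes the main form of CP29, had 1204, 1166 and 1178 FPKM with isoxaben, 1413, 1213 and 1164 FPKM with PEP3, 1100.4, 1244 and 1387 FPKM with both, and 1583, 1579.8 and 1520.0 FPKM with DMSO. It fell by a moderate amount without overlap, at -0.40 ± 0.09, adjusted p = 0.00268. LHCB4.2 (AT3G08940, chr3:2717557-2718923), the second CP29 gene, had 132, 142 and 123 FPKM with isoxaben, 226, 195 and 178 FPKM with PEP3, 145, 192 and 222 FPKM with both, and 252, 221 and 229 FPKM with DMSO. Its fall was larger, -0.82 ± 0.13, adjusted p = 0.000248, again without overlap. LHCB4.3 (AT2G40100, chr2:16745628-16747424), a less abundant form, had 63.4, 51.3 and 46.6 FPKM with isoxaben, 70.7, 61.1 and 56.1 FPKM with PEP3, 65.2, 66.1 and 85.6 FPKM with both, and 68.7, 69.5 and 61.5 FPKM with DMSO. Isoxaben replicate 1 lay among the DMSO libraries, and the change of -0.31 ± 0.13, adjusted p = 0.0748 did not pass the test. LHCB5 (AT4G10340, chr4:6408007-6409849), which encodes CP26, had 879, 816 and 879 FPKM with isoxaben, 1063, 938 and 948 FPKM with PEP3, 800.0, 942 and 936 FPKM with both, and 1485, 1254 and 1234 FPKM with DMSO. Its isoxaben libraries were all below those of DMSO, with a change of -0.62 ± 0.09, adjusted p = 9.47e-05. LHCB6, which encodes CP24, changed by -0.68 ± 0.19, adjusted p = 0.0128, and its adjusted p was 0.0581 without DMSO replicate 1.

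All 4 LHCA genes, which form the antenna belt of photosystem I, fell after isoxaben, with log2 changes between -0.64 and -0.50. LHCA2 (AT3G61470, chr3:22745514-22747444), the most abundant of them, had 718, 725 and 679 FPKM with isoxaben, 833, 686 and 688 FPKM with PEP3, 613, 879.8 and 861 FPKM with both, and 1076, 976 and 956 FPKM with DMSO. All 9 treated libraries were below the DMSO libraries, and after isoxaben the change was -0.50 ± 0.12, adjusted p = 0.00544. LHCA3 (AT1G61520, chr1:22699715-22701412) had 485, 490.3 and 456 FPKM with isoxaben, 627, 530.2 and 520.2 FPKM with PEP3, 476, 571 and 563 FPKM with both, and 765, 673 and 661 FPKM with DMSO. LHCA4 (AT3G47470, chr3:17493343-17495033) had 522, 590.2 and 536 FPKM with isoxaben, 770.4, 653 and 648 FPKM with PEP3, 567, 746 and 690.4 FPKM with both, and 947, 803 and 823 FPKM with DMSO. Neither gene had a treated library that reached the level of a DMSO library, and after isoxaben LHCA3 changed by -0.55 ± 0.09, adjusted p = 0.000339, and LHCA4 by -0.64 ± 0.10, adjusted p = 0.000321. For LHCA1 the change was -0.63 ± 0.16.

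The 8 photosystem II subunit genes all fell after isoxaben, with a class median of -0.48. PSBO, PSBP and PSBQ form the lumenal cap that stabilises the water-splitting manganese cluster. PSBO1 (AT5G66570, chr5:26568572-26570461) had 1275, 1203 and 1267 FPKM with isoxaben, 1426, 1249.8 and 1249 FPKM with PEP3, 1179, 1262 and 1344 FPKM with both, and 1685, 1669 and 1587 FPKM with DMSO. PSBO2 (AT3G50820, chr3:18890874-18892508), its paralog, had 275, 244 and 241 FPKM with isoxaben, 328, 254 and 241 FPKM with PEP3, 244, 254 and 281 FPKM with both, and 429, 404 and 386 FPKM with DMSO. No library of any treatment reached a DMSO library for either gene, and after isoxaben PSBO2 changed by -0.68 ± 0.10, adjusted p = 0.00017, and PSBO1 by -0.40 ± 0.07, adjusted p = 0.000564. PSBP1 (AT1G06680, chr1:2047634-2049439) had 1106, 1004 and 1113 FPKM with isoxaben, 1221, 1128 and 1158 FPKM with PEP3, 1045, 1017 and 1027 FPKM with both, and 1612, 1534 and 1464 FPKM with DMSO. No treated library reached the DMSO range, and the isoxaben change was -0.52 ± 0.06, adjusted p = 2.43e-05. PSBQ1 (AT4G21280, chr4:11334352-11335815) had 713, 603 and 651 FPKM with isoxaben, 772, 699 and 678 FPKM with PEP3, 627, 694 and 739.8 FPKM with both, and 989, 940.2 and 869.6 FPKM with DMSO. PSBQ2 (AT4G05180, chr4:2671523-2673243) had 394, 413 and 446 FPKM with isoxaben, 438, 421 and 457 FPKM with PEP3, 378, 399 and 413 FPKM with both, and 561, 546 and 531 FPKM with DMSO. These libraries again separated every treatment from DMSO, and the changes after isoxaben were -0.51 ± 0.08, adjusted p = 0.000326 for PSBQ1 and -0.39 ± 0.06, adjusted p = 0.000255 for PSBQ2.

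PSBS (AT1G44575, chr1:16870221-16873427), the sensor protein of energy-dependent quenching, had 271, 263 and 266 FPKM with isoxaben, 354, 281 and 282 FPKM with PEP3, 273, 346 and 323 FPKM with both, and 407, 380.1 and 359.7 FPKM with DMSO. All treated libraries were below DMSO and the isoxaben libraries were the lowest, with a change of -0.52 ± 0.10, adjusted p = 0.00103. PSBR (AT1G79040, chr1:29735952-29737009), a small membrane subunit near the lumenal cap and the most abundant gene of the class, had 1266, 1352 and 1132 FPKM with isoxaben, 1952, 1628 and 1213 FPKM with PEP3, 1629.6, 1588 and 1879 FPKM with both, and 1791, 1711 and 1598 FPKM with DMSO. It was lower than with DMSO in all 3 isoxaben libraries (-0.45 ± 0.14, adjusted p = 0.0225) but overlapped with DMSO after PEP3 and after both. Its isoxaben call was lost in the fits without isoxaben replicate 3, DMSO replicate 1 or DMSO replicate 2, with adjusted p-values up to 0.0799. PSBW, a small subunit that stabilises supercomplexes, changed by -0.41 ± 0.08, adjusted p = 0.00203 after isoxaben.

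All 11 photosystem I subunit genes fell after isoxaben, with log2 changes from -0.71 to -0.38 and a median of -0.53. PSAD and PSAE sit on the stromal side, where ferredoxin docks. PSAD1 (AT4G02770, chr4:1229031-1230164) had 623, 595 and 588 FPKM with isoxaben, 815, 769.5 and 836 FPKM with PEP3, 638, 748 and 689 FPKM with both, and 1039.8, 971 and 943 FPKM with DMSO. PSAD2 (AT1G03130, chr1:753307-754262), its paralog, had 107, 122 and 112 FPKM with isoxaben, 195, 164 and 162 FPKM with PEP3, 148, 169 and 159 FPKM with both, and 185, 171 and 179.8 FPKM with DMSO. The isoxaben libraries were the lowest for both genes, but with PEP3 only the PSAD1 libraries were all below DMSO. After isoxaben PSAD1 changed by -0.71 ± 0.07, adjusted p = 2.9e-06, and PSAD2 by -0.65 ± 0.08, adjusted p = 2.83e-05. PSAE1 (AT4G28750, chr4:14202758-14204061) had 313, 314 and 280.2 FPKM with isoxaben, 370.4, 321 and 359 FPKM with PEP3, 289, 364 and 357 FPKM with both, and 459, 427 and 406 FPKM with DMSO. PSAE2 (AT2G20260, chr2:8736734-8737767) had 303, 296 and 298 FPKM with isoxaben, 347, 316 and 320.2 FPKM with PEP3, 308, 359 and 366 FPKM with both, and 399.6, 392 and 381 FPKM with DMSO. Both were below DMSO in all treated libraries, with isoxaben changes of -0.51 ± 0.09, adjusted p = 0.000617 for PSAE1 and -0.38 ± 0.07, adjusted p = 0.000578 for PSAE2. An opposite-strand gene that is listed at 0 overlaps 33.4% of the PSAE1 span.

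PSAF (AT1G31330, chr1:11214676-11216141), the lumenal plastocyanin docking subunit and the most abundant of the class, had 1025, 966 and 1097 FPKM with isoxaben, 1169, 1101 and 1153 FPKM with PEP3, 959, 1081 and 985 FPKM with both, and 1503, 1405 and 1361 FPKM with DMSO. PSAN (AT5G64040, chr5:25628521-25629708), also on the lumenal side, had 427, 377 and 437 FPKM with isoxaben, 478, 472 and 438 FPKM with PEP3, 439, 378 and 386 FPKM with both, and 663, 620.2 and 596 FPKM with DMSO. Neither had a treated library within the DMSO range, and after isoxaben PSAF changed by -0.47 ± 0.07, adjusted p = 0.000134, and PSAN by -0.60 ± 0.08, adjusted p = 3.87e-05. PSAG (AT1G55670, chr1:20802670-20803449), a subunit at the antenna belt, had 242, 219 and 223 FPKM with isoxaben, 289, 283 and 256 FPKM with PEP3, 252, 309 and 281 FPKM with both, and 372, 318 and 301 FPKM with DMSO. PSAH2 (AT1G52230, chr1:19454798-19455668), at the side where the photosystem II antenna docks in state transitions, had 275, 261 and 285 FPKM with isoxaben, 376, 362 and 378 FPKM with PEP3, 324, 375 and 333 FPKM with both, and 497, 413 and 418 FPKM with DMSO. PSAO (AT1G08380, chr1:2640803-2641934), on the same side, had 566, 609 and 499 FPKM with isoxaben, 819.6, 690.4 and 572 FPKM with PEP3, 629, 751 and 789 FPKM with both, and 954, 832 and 787 FPKM with DMSO. Isoxaben libraries were below all DMSO libraries for these 3 genes, and below all other libraries for PSAG and PSAH2, with changes of -0.53 ± 0.09, adjusted p = 0.000476 for PSAG, -0.69 ± 0.08, adjusted p = 1.36e-05 for PSAH2 and -0.62 ± 0.13, adjusted p = 0.00184 for PSAO. PSAK changed by -0.46 ± 0.10 and PSAL by -0.43 ± 0.07. Opposite-strand genes overlap 61.4% of PSAG (listed at 0) and 20.0% of PSAH2 (1.05 FPKM on average).

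Among the Rubisco genes, 4 of 5 fell after isoxaben, and the most abundant one did not pass the test. The RBCS1A values given above lie lower in all 3 isoxaben libraries than in all 3 DMSO libraries, but the change of -0.18 ± 0.07, adjusted p = 0.079 missed the threshold. RBCS2B (AT5G38420, chr5:15380907-15382071) had 1034, 952 and 1051 FPKM with isoxaben, 1442, 1370.2 and 1323 FPKM with PEP3, 1160.3, 1148 and 1385 FPKM with both, and 1875, 1821 and 1618 FPKM with DMSO. It showed a larger fall without overlap, -0.81 ± 0.08, adjusted p = 6.3e-06. RBCS1B (AT5G38430, chr5:15383167-15385320) had 527, 394 and 489 FPKM with isoxaben, 609, 550.0 and 522 FPKM with PEP3, 486, 492 and 584 FPKM with both, and 807, 766 and 749 FPKM with DMSO. RBCS3B (AT5G38410, chr5:15376988-15378642) had 2626, 2283 and 2456 FPKM with isoxaben, 2774, 2647 and 2374 FPKM with PEP3, 2394, 2317 and 2509 FPKM with both, and 3244, 3123 and 3146 FPKM with DMSO. Every treated library was below DMSO for both, with isoxaben changes of -0.73 ± 0.10, adjusted p = 0.000104 for RBCS1B and -0.37 ± 0.07, adjusted p = 0.0015 for RBCS3B. RCA (AT2G39730, chr2:16570746-16573692), which frees Rubisco of bound inhibitors, had 1102, 889.5 and 1011 FPKM with isoxaben, 1245, 1114 and 1071 FPKM with PEP3, 1014, 1087 and 1222 FPKM with both, and 1515, 1486 and 1405 FPKM with DMSO. It separated from DMSO after every treatment, and the isoxaben change was -0.56 ± 0.09, adjusted p = 0.000314.

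**Figure D2:**
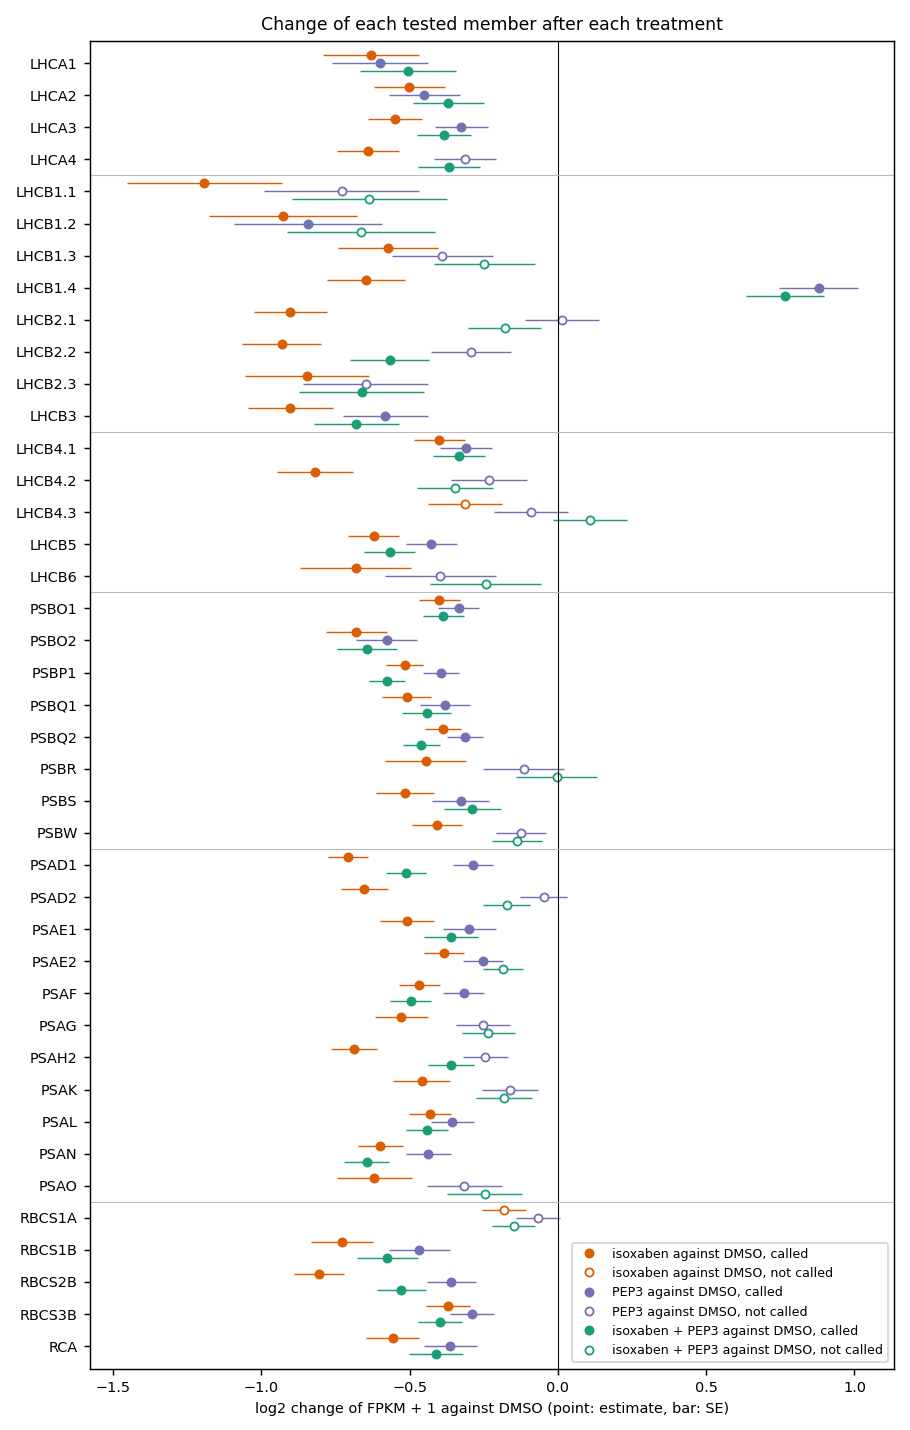
Log2 change of FPKM + 1 against DMSO for each of the 41 tested genes (points, with the SE as bars), for isoxaben, PEP3 and both, with filled points at an adjusted p under 0.05. The isoxaben points lie between -1.19 and -0.18 and are the leftmost point of 35 of the 41 genes, and LHCB1.4 alone has filled points to the right of 0.

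Photosynthesis genes were also lower with PEP3. With PEP3 alone, 23 of the 41 genes fell and 1, LHCB1.4, rose, while 6.45% of all tested genes fell and 7.84% rose (14.3% in either direction). The median log2 change was -0.32, or 0.802 of the DMSO level, against 0.01 over all tested genes. The PEP3 libraries were all below DMSO for 27 genes and all above for 1, against 15.4% and 16.8% of all tested genes. For each of the 41 genes the estimate was lower after isoxaben than after PEP3. These comparisons share the DMSO libraries. By class, 3 of 4 LHCA genes fell, 2 of 8 major antenna genes, 2 of 5 minor antenna genes, 6 of 8 photosystem II subunits, 6 of 11 photosystem I subunits and 4 of 5 Rubisco genes.

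Falls with PEP3 included the lumenal cap of photosystem II. PSBP1 changed by -0.39 ± 0.06, adjusted p = 0.00101, PSBO2 by -0.58 ± 0.10, adjusted p = 0.00226, and PSBO1 by -0.33 ± 0.07, adjusted p = 0.00639. In the antenna, LHCB5 changed by -0.43 ± 0.09, adjusted p = 0.00559 and LHCB3 by -0.58 ± 0.14, adjusted p = 0.0164, and in photosystem I PSAN changed by -0.44 ± 0.08, adjusted p = 0.00199. Of the Rubisco genes, RBCS1B changed by -0.47 ± 0.10, adjusted p = 0.00886, while RBCS1A stayed within its replicate spread at -0.07 ± 0.07, adjusted p = 0.625. Values near 0 were also found for LHCB2.1 (0.01 ± 0.12, adjusted p = 0.962), PSAD2 (-0.05 ± 0.08, adjusted p = 0.764) and LHCB4.3 (-0.09 ± 0.13, adjusted p = 0.71). With near copies summed, limma gave -0.14, adjusted p = 0.531 for LHCB2.1 plus LHCB2.2 with PEP3. For LHCB1.1 to LHCB1.3 it gave -0.47, adjusted p = 0.111, so neither sum was called.

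How many genes passed the PEP3 test depended on single libraries. The major antenna genes summed to 5678, 4091 and 3662 FPKM in the 3 PEP3 libraries and to 6799.6, 5696 and 5493 FPKM in the 3 DMSO libraries, so that replicate 1 was the highest in both groups. Without PEP3 replicate 2 or 3, 11 or 12 genes fell, and without DMSO replicate 1 or 2, 10 or 14 did. Without PEP3 replicate 1, 30 fell.

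With both treatments, 25 of the 41 genes fell and 1 rose against DMSO, while 14.4% of all tested genes fell and 16.9% rose (31.4% in either direction). The median log2 change was -0.38, or 0.766 of the DMSO level, against 0.00 over all tested genes. No combined library reached the DMSO range for 30 genes on the low side and 1 on the high side, against 21.8% and 23.4% of all tested genes. PSBP1 (-0.58 ± 0.06, adjusted p = 1.22e-05), PSAN (-0.64 ± 0.08, adjusted p = 2.6e-05) and PSAD1 (-0.51 ± 0.07, adjusted p = 6.85e-05) were among the genes that fell. PSBR, by contrast, was at -0.00 ± 0.14, adjusted p = 0.989 and LHCB4.3 at 0.11 ± 0.13, adjusted p = 0.563. In all, 21 genes fell in each of the 3 comparisons with DMSO, and 14 genes that fell after isoxaben alone were not called lower after both, of which 13 were not called and LHCB1.4 was called higher. The comparisons share the DMSO libraries, and these joint counts were not made over all tested genes, so nothing particular to the 41 genes can be read from them.

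**Figure D3:**
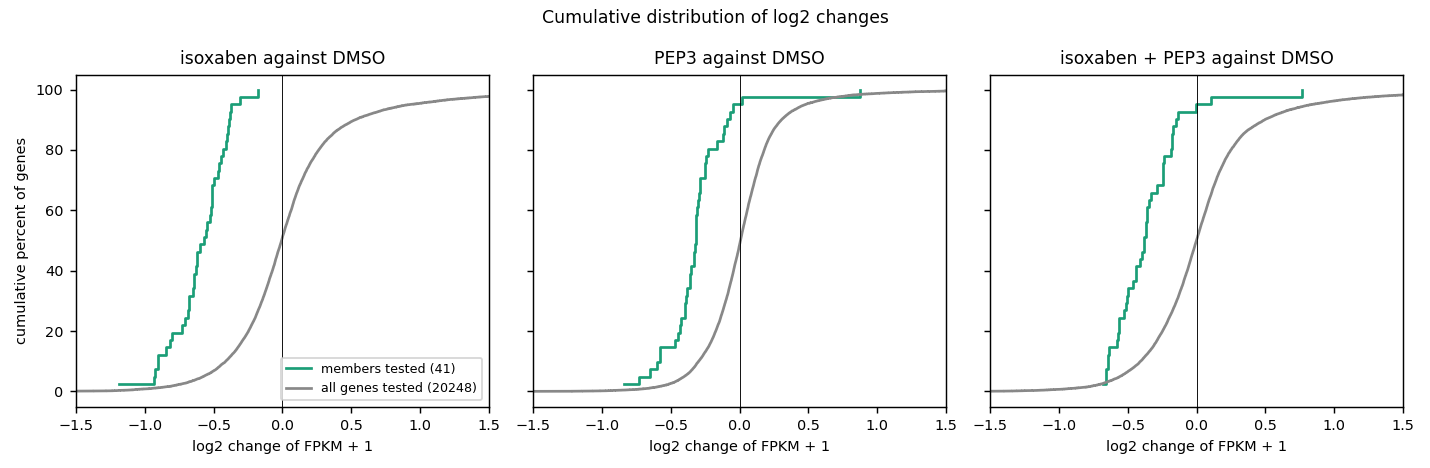
Cumulative percent of the 41 tested genes and of all 20248 tested genes (vertical axis) by log2 change of FPKM + 1 (horizontal axis, without the outermost tails) for isoxaben, PEP3 and both against DMSO. The curve of the photosynthesis genes is shifted left in all 3 panels, with medians of -0.57, -0.32 and -0.38, while the curves of all genes cross their medians near 0.

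LHCB1.4 was the 1 gene of the 41 that rose against DMSO, after PEP3 and after both, although it fell after isoxaben. It encodes an LHCB1 protein of the major antenna and is annotated as LHB1B1 in the deposited table. LHCB1.4 (AT2G34430, chr2:14524607-14525918) had 31.7, 37.0 and 27.1 FPKM with isoxaben, 105, 103 and 74.5 FPKM with PEP3, 78.2, 94.3 and 86.0 FPKM with both, and 52.3, 46.1 and 52.3 FPKM with DMSO. All isoxaben libraries were below DMSO, and all PEP3 and combined libraries were above it. The log2 change was -0.65 ± 0.13, adjusted p = 0.00183 after isoxaben, 0.88 ± 0.13, adjusted p = 0.000719 after PEP3 and 0.77 ± 0.13, adjusted p = 0.000606 after both. Its share of the summed FPKM of LHCB1.1 to LHCB1.4 was 1.04% ± 0.03 with isoxaben, 2.64% ± 0.42 with PEP3, 2.21% ± 0.35 with both and 1.04% ± 0.13 with DMSO (SD, n = 3). The PEP3 and combined calls held with each library left out in turn, with adjusted p-values up to 0.00562 and 0.00423. LHCB1.4 is 91.6% identical to LHCB1.5, which is listed at 0 throughout, so that fragments of the pair may have been assigned to 1 of them.

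Adding PEP3 to isoxaben left the photosynthesis genes higher than isoxaben alone in 5 cases and lower in 0, while 3.32% of all tested genes were higher and 4.09% lower (7.41% in either direction). By the unadjusted p under 0.05 the counts were 18 and 0, while 2135 of all 20248 tested genes were higher and 2289 lower. The median difference over the 41 genes was 0.20, against 0.00 over all tested genes, and the estimate was above 0 in 35 of them. Combined and isoxaben libraries did not overlap, with the combined ones higher, for 15 genes, as for 12.1% of all tested genes. The 5 genes, all with values given above, were LHCB1.4 (1.41 ± 0.13, adjusted p = 4.93e-05), LHCB2.1 (0.72 ± 0.12, adjusted p = 0.00342), PSAD2 (0.48 ± 0.08, adjusted p = 0.00272), PSAH2 (0.33 ± 0.08, adjusted p = 0.0221) and LHCB4.2 (0.47 ± 0.13, adjusted p = 0.0421). Of these, LHCB1.4, LHCB2.1 and PSAD2 were called with each library left out in turn. The number called was 3 without isoxaben replicate 2 or without combined replicate 2, 8 without PEP3 replicate 3, and 9 without combined replicate 1. In that last library the major antenna genes summed to 3622 FPKM, against 5386 and 5221 FPKM in the other 2.

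The combined treatment was not told apart from PEP3 alone for any of the 41 genes by limma, with 0 called in either direction, where 2.25% of all tested genes were lower and 6.02% higher (8.26% in either direction). At an unadjusted p under 0.05, 5 of the 41 genes were lower and 0 higher. Of all 20248 tested genes, 1920 were lower and 2527 higher by that rule. With voom on recovered fragments, 1 of the 41 genes was called lower. The log2 differences ran from -0.27 to 0.20, with standard errors of 0.06 to 0.26. The lowest was that of LHCB2.2 (-0.27 ± 0.13, adjusted p = 0.258), and PSAD1 was at -0.22 ± 0.07, adjusted p = 0.0591.

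The interaction is the change PEP3 gave in the presence of isoxaben minus the change it gave in DMSO, on the log2 scale. It was above 0 for all 41 genes and called for 20, all positive, while 1.94% of all tested genes were called with a positive one and 6.24% in either direction. Of all 20248 tested genes, 10415 had an estimate below 0. The 41 estimates come from the same 12 libraries and are not independent of each other. The median was 0.53, against -0.01 over all tested genes. The combined treatment thus stood higher than the 2 single log2 changes added together. All 41 genes also stood above the sum of the 2 single changes in plain FPKM. By class, 2 of 4 LHCA genes were called, 2 of 8 major antenna genes, 2 of 5 minor antenna genes, 4 of 8 photosystem II subunits, 7 of 11 photosystem I subunits and 3 of 5 Rubisco genes.

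RBCS2B illustrates the interaction. It changed by -0.81 after isoxaben and by -0.36 after PEP3, but by -0.53 after both, an interaction of 0.64 ± 0.12, adjusted p = 0.00708. PSAH2 (0.57 ± 0.11, adjusted p = 0.00874), PSAD1 (0.48 ± 0.10, adjusted p = 0.00991), PSAE2 (0.45 ± 0.10, adjusted p = 0.0145) and PSAD2 (0.53 ± 0.11, adjusted p = 0.0155) were, with RBCS2B, the 5 genes called with each library left out in turn. LHCB3 (0.80 ± 0.20, adjusted p = 0.0343) and LHCB2.1 (0.71 ± 0.18, adjusted p = 0.0311) were the 2 major antenna genes called. LHCB1.1 had the highest estimate, 1.29 ± 0.37, adjusted p = 0.0575, with a wide error, and was not called. RBCS1A had the lowest, 0.10 ± 0.10, adjusted p = 0.658.

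The number of interaction calls moved widely with single libraries. It was 5 without PEP3 replicate 3, combined replicate 3 or DMSO replicate 1, and 6 without PEP3 replicate 2. It was 7 without combined replicate 2, 8 without DMSO replicate 2, and 11, 10 and 13 without isoxaben replicates 1, 2 and 3. Without PEP3 replicate 1 it was 35. The median of the 41 estimates stayed between 0.48 and 0.60 in these fits.

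**Figure D4:**
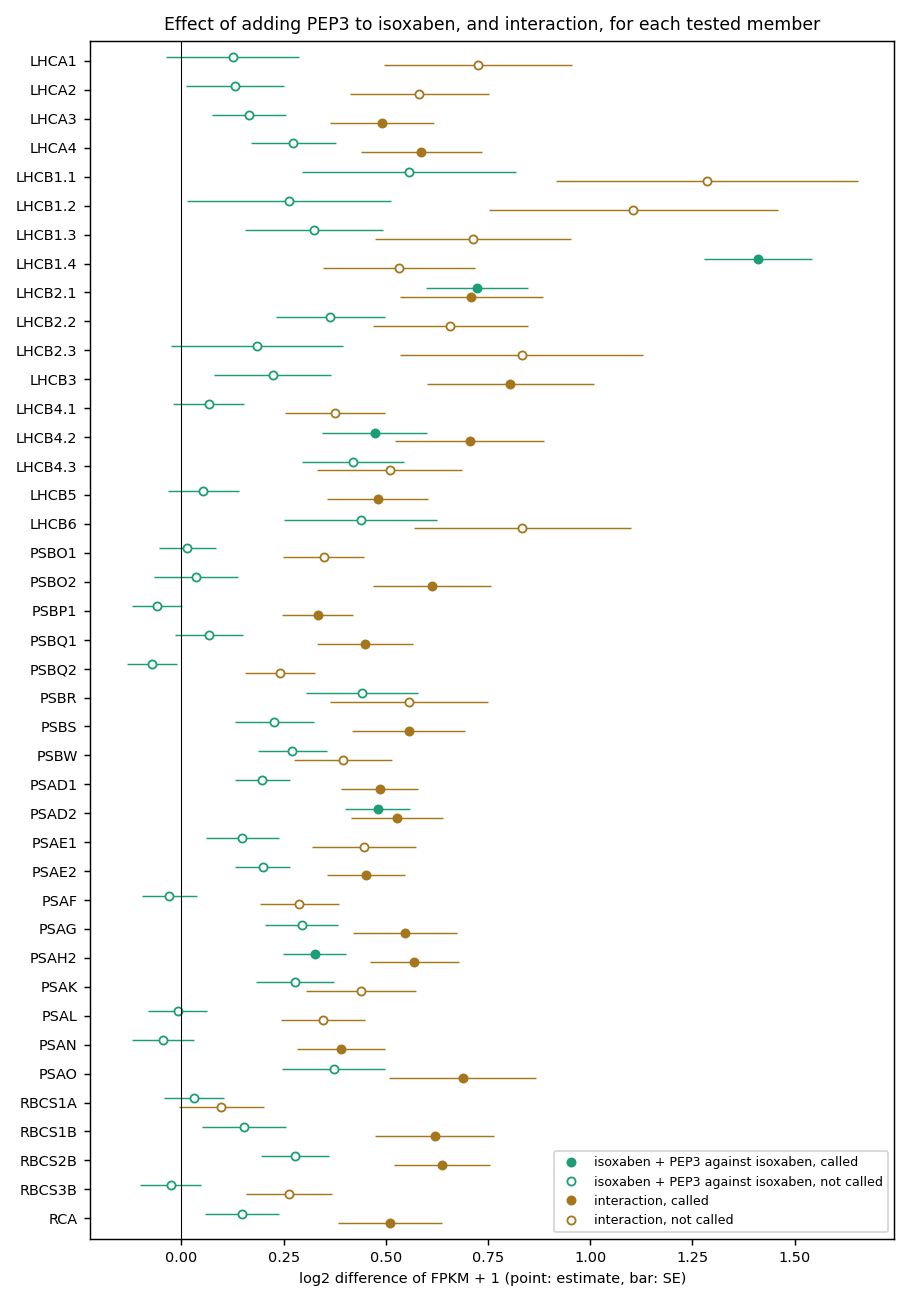
Log2 difference of FPKM + 1 between both treatments and isoxaben, and the isoxaben by PEP3 interaction, for each of the 41 tested genes (points, with the SE as bars), with filled points at an adjusted p under 0.05. Interaction estimates all lie right of 0, from 0.10 for RBCS1A to 1.29 for LHCB1.1, and LHCB1.4 has the highest difference between both treatments and isoxaben, 1.41.

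Paralogs of 1 subunit did not contribute in constant proportion. The share of RBCS1A in the summed FPKM of the 4 RBCS genes was 78.5% ± 0.31 with isoxaben, 77.5% ± 0.52 with PEP3, 78.0% ± 1.43 with both and 74.0% ± 0.48 with DMSO (SD, n = 3). The RBCS2B share was 5.52% ± 0.17 with isoxaben, 6.85% ± 0.03 with PEP3, 6.53% ± 0.70 with both and 8.04% ± 0.51 with DMSO. For PSBO the share of PSBO2 ranged from 16.0% to 17.8% with isoxaben, 16.2% to 18.7% with PEP3, 16.8% to 17.3% with both and 19.5% to 20.3% with DMSO. In each of these cases the 3 treatments lay on the same side of DMSO. LHCB4.2 differed, with 9.67% ± 0.66 of the LHCB4 sum with isoxaben, 13.1% ± 0.33 with PEP3, 12.3% ± 1.08 with both and 12.6% ± 0.72 with DMSO. PSAD2 made up 15.9% ± 1.17 of PSAD with isoxaben, 17.7% ± 1.53 with PEP3, 18.7% ± 0.20 with both and 15.4% ± 0.56 with DMSO. The PSBQ2 share differed by less than the spread between replicates, with 39.0% ± 2.93 with isoxaben, 38.0% ± 2.08 with PEP3, 36.6% ± 0.88 with both and 36.9% ± 0.89 with DMSO. PSAE2 held 49.8% ± 1.57 of the PSAE sum with isoxaben, 48.4% ± 1.19 with PEP3, 50.6% ± 0.93 with both and 47.6% ± 0.93 with DMSO. No test was run on these shares. Those of near copies such as RBCS1A and RBCS2B also depend on how fragments were divided between the copies in counting.

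Other nuclear genes of photosynthesis were lower as well. After isoxaben, 10 of 11 further photosystem and antenna genes fell, as did all 11 genes of electron transport and the ATP synthase, 16 of 17 Calvin-Benson cycle genes and 18 of 20 tested chlorophyll synthesis genes (of 22 listed), and 0 genes of these lists rose by limma (also 0 at an unadjusted p under 0.05). LHCA6, an antenna protein that links photosystem I to the NDH complex, had the largest fall of these lists at -1.22 ± 0.15, adjusted p = 2.52e-05, and PSB27, a photosystem II assembly factor, changed by -0.65 ± 0.08, adjusted p = 2.75e-05. PSAH1 (-0.34 ± 0.12, adjusted p = 0.0485) and CURT1B (-0.31 ± 0.07, adjusted p = 0.0024), a protein that bends thylakoid membranes, fell least among the called genes of their list, and PSAH1 was called in 4 of the 12 fits with a library left out. In electron transport, plastocyanin PETE1 changed by -0.77 ± 0.10, adjusted p = 6.66e-05 and the ferredoxin reductase LFNR2 by -0.63 ± 0.07, adjusted p = 1.01e-05. The Rieske protein gene PETC (-0.31 ± 0.07, adjusted p = 0.00232) and ATPG (-0.19 ± 0.06, adjusted p = 0.02), a subunit of the ATP synthase, fell least, and the ATPG call was lost without isoxaben replicate 2, DMSO replicate 1 or DMSO replicate 2.

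In the Calvin-Benson cycle, the plastid aldolase FBA1 changed by -0.96 ± 0.12, adjusted p = 3.62e-05 after isoxaben and the regulator CP12-2 by -0.93 ± 0.12, adjusted p = 5.5e-05. PGK2, phosphoglycerate kinase, was at -0.18 ± 0.06, adjusted p = 0.032 and was called in 8 of the 12 fits with a library left out. In chlorophyll synthesis, CHLM, a methyltransferase, changed by -0.78 ± 0.10, adjusted p = 6.26e-05 and CHLP, which makes the phytyl tail, by -0.78 ± 0.08, adjusted p = 8.91e-06. Among 6 stress-related relatives of the antenna proteins 4 fell, including OHP1 (-0.77 ± 0.10, adjusted p = 3.99e-05) and LIL3.1 (-0.55 ± 0.08, adjusted p = 7.82e-05). With PEP3 the falls numbered 5 of 11 further photosystem genes, 9 of 11 in electron transport, 11 of 17 in the Calvin-Benson cycle, 14 of 20 in chlorophyll synthesis and 4 of 6 antenna relatives. With both treatments they numbered 7, 10, 14, 19 and 4 in the same order, while CP12-3, a relative of CP12-2, rose by 0.64 ± 0.19, adjusted p = 0.02 and ELIP2, an early light-induced protein, by 0.52 ± 0.17, adjusted p = 0.0363. CP12-3 and ELIP2 were named after their values were seen.

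**Figure D5:**
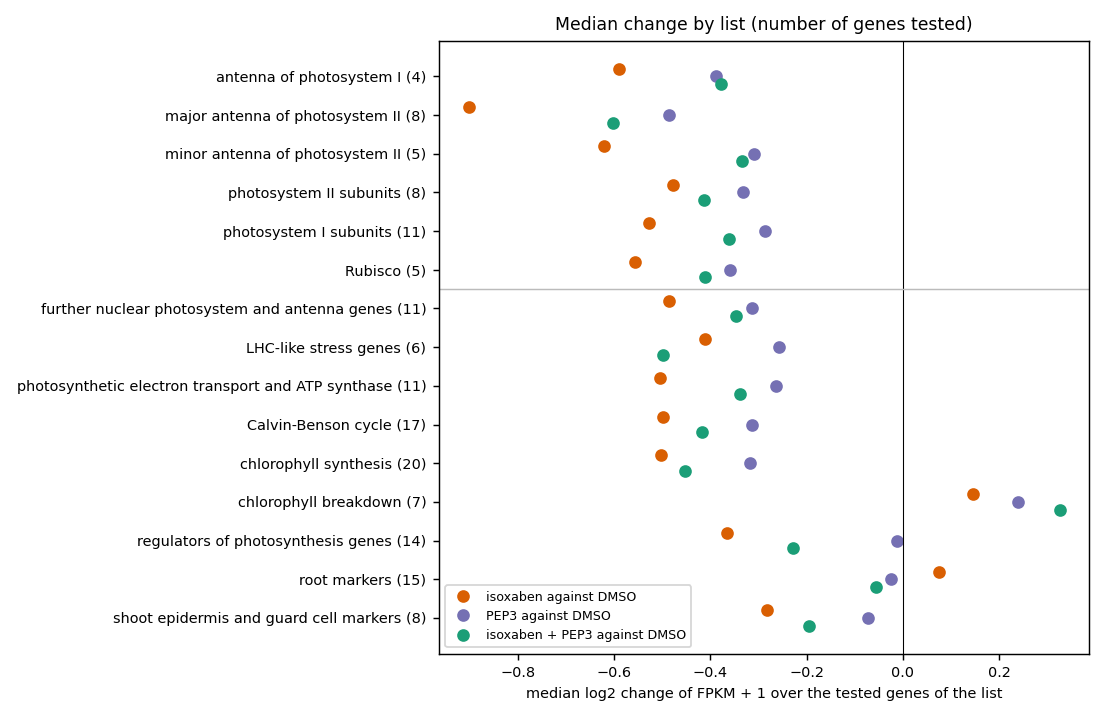
Median log2 change of FPKM + 1 against DMSO over the tested genes of each list (number in brackets), for isoxaben, PEP3 and both. The 6 classes above the line and the 5 photosynthesis lists below it have medians below 0 in all 3 comparisons, from -0.90 for the major antenna after isoxaben to -0.26. Chlorophyll breakdown genes lie above 0, at 0.15 after isoxaben, 0.24 after PEP3 and 0.33 after both. Regulators of photosynthesis genes are at -0.36, -0.01 and -0.23 in the same order. Root markers lie between -0.06 and 0.07. Shoot epidermis and guard cell markers are also below 0, at -0.28 after isoxaben, -0.07 after PEP3 and -0.20 after both.

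Markers of other cell types were set beside these changes. Of 15 root markers 0 fell and 0 rose after isoxaben by limma (0 lower and 1 higher at an unadjusted p under 0.05), and their summed FPKM ranged from 2035 to 2584 with isoxaben and from 2271 to 2339 with DMSO. With PEP3 the sum was lower, 1707 to 1782 FPKM, and with both 1354 to 1646 FPKM, and PYK10, a root and hypocotyl beta-glucosidase that makes up most of it, changed by -0.43 ± 0.10, adjusted p = 0.00907 after PEP3 and by -0.69 ± 0.10, adjusted p = 0.000102 after both. The root marker sum with isoxaben overlapped with that of DMSO, and with PEP3 or both it was lower. After PEP3 1 and after both 2 of the root markers fell, shares near the 6.45% and 14.4% of all tested genes. Of 8 markers of shoot epidermis and guard cells 1 fell after PEP3, 3 after both and 2 after isoxaben, where 6.45%, 14.4% and 15.2% of all tested genes fell. Nothing particular to this list can be read from counts over 8 genes. FDH, an epidermal enzyme of fatty acid elongation, changed by -0.37 ± 0.06, adjusted p = 0.000463 after isoxaben. Their summed FPKM ranged from 149 to 173 with isoxaben, 171 to 184 with PEP3, 156 to 162 with both and 192 to 202 with DMSO, and their part in the photosynthesis results was not tested.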

How the data were processed

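The deposited table held FPKM of 32833 genes in 12 libraries (3 each of isoxaben, PEP3, both and DMSO), as the authors made them, with gene lengths and positions. HISAT2 2.0.5 and TAIR10 are named per the submitters' processing notes, while no counting program, strand setting or annotation version is given in the sources used here. Library depth was recovered from FPKM times gene length, which gave whole fragments for 100% of values (tolerance 0.01). The divisor in the deposited FPKM was 0.982 to 1.03 times the summed fragments. No column of values was left unmatched.

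Changes were tested with limma 3.58.1 in R 4.3.3 (lmFit, eBayes with trend) on log2(FPKM + 1), fitting the 4 treatment means without covariates on 8 residual degrees of freedom. Genes averaging 0.5 FPKM or more were tested (20248, with 12585 left out). Benjamini-Hochberg adjustment was made separately in each of 6 comparisons, and genes under 0.05 were called. A fold change on this scale understates that of genes with low values. Within groups, log2 values of replicates correlated at 0.986 to 0.991, and counts differed by 4.26 to 12.5 chi-square units per gene, beyond sampling noise. The labels call the replicates biological. The steps were tested on simulated data.

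The genes and lists were chosen with earlier results of these data known. Values in every library are given for the most abundant gene and the lowest and highest change after isoxaben of each class, for the Rubisco genes and for the paralogs LHCB4, PSBO, PSBQ, PSAD and PSAE. They are also given for genes called in the interaction or in both against isoxaben. Of other lists, the 2 lowest and 2 highest changes after isoxaben are named where called. PYK10, LHCB1.2 to LHCB2.3 and further genes given without library values were named after their values were seen. Alternatives were pseudocounts of 0.1 and 0.5, other filters, scalings and thresholds, other variance models, fits of the compared groups only, the replicate block, voom on recovered fragments, sums of near-identical copies, and each library left out. Upstream windows were read from the RefSeq genome of TAIR10.1 with Python 3.11.15, and 32548 gene identifiers of the table matched RefSeq.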

Additional observations from a re-analysis of the deposited data

Results flagged for a closer look

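The effect of PEP3 differed with and without isoxaben, by the interaction test in limma at an adjusted p under 0.05, for the following genes. In the antenna, the log2 interaction was 0.80 ± 0.20 for LHCB3, 0.71 ± 0.18 for LHCB2.1, 0.71 ± 0.18 for LHCB4.2, 0.59 ± 0.15 for LHCA4, 0.49 ± 0.13 for LHCA3 and 0.48 ± 0.12 for LHCB5 (± SE). Among photosystem I subunits it was 0.69 ± 0.18 for PSAO, 0.57 ± 0.11 for PSAH2, 0.55 ± 0.13 for PSAG, 0.53 ± 0.11 for PSAD2, 0.48 ± 0.10 for PSAD1, 0.45 ± 0.10 for PSAE2 and 0.39 ± 0.11 for PSAN. Among photosystem II subunits it was 0.61 ± 0.14 for PSBO2, 0.56 ± 0.14 for PSBS, 0.45 ± 0.12 for PSBQ1 and 0.33 ± 0.09 for PSBP1. The Rubisco genes called were RBCS2B (0.64 ± 0.12), RBCS1B (0.62 ± 0.15) and RCA (0.51 ± 0.13).

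Of the genes named from other lists, the interaction was 0.99 ± 0.21 for LHCA6, 0.86 ± 0.17 for CP12-2, 0.84 ± 0.17 for FBA1, 0.63 ± 0.14 for OHP1 and 0.63 ± 0.12 for CHLP. It was 0.62 ± 0.15 for PETE1, 0.60 ± 0.13 for SIG6, 0.53 ± 0.10 for LFNR2, 0.51 ± 0.11 for PSB27 and 0.41 ± 0.11 for NYC1. SGR1, which starts chlorophyll breakdown, was the one with a negative value, -0.58 ± 0.14. Adjusted p-values of all these genes lay between 0.00708 and 0.0475. With each library left out in turn, 5 of the 20 photosystem, antenna and Rubisco genes were called in every fit.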

How the results depend on the processing

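No direction of a called value reversed under any alternative, for the 41 genes and the genes named from other lists by their isoxaben change. PYK10, CP12-3, ELIP2, SGR2, GLK1 and GLK2 were not followed through the alternatives. With 1 library left out, the number of genes of the 41 that fell was 35 to 40 for isoxaben, 10 to 30 for PEP3 and 20 to 29 for both against DMSO, and that for both against PEP3 was 0 to 1. The number that rose was 3 to 9 for both against isoxaben and 5 to 35 for the interaction. Of other settings, no filter on low values gave 15 falls with PEP3 and 6 interactions, and eBayes without the trend gave 3 rises for both against isoxaben and 5 interactions. voom gave 12 rises for both against isoxaben, 1 fall for both against PEP3 and 34 interactions. Falls for both against PEP3 numbered 1 with a mean of at least 2 FPKM or robust eBayes, and 2 with TPM, quantile, summed-fragment or other-gene scaling, and quantile scaling gave 1 fall for both against isoxaben. An adjusted p under 0.01 left 10 falls with PEP3, 3 rises for both against isoxaben and 3 interactions, and a change of at least 0.5 left 4, 2 and 13, and 11 falls for both against DMSO. The threshold counts follow from a stricter rule applied to the same fit. Without the filter, more genes were tested and the variance model was refitted to them, and which of these moved the counts was not tested. For the others the cause was not tested either. Replicate numbers were not used as pairs in the main fit. Deviations of same-numbered libraries correlated at -0.11 to 0.10, which cannot show whether these libraries were handled together. With a replicate block the counts were 39, 20 and 23 falls for isoxaben, PEP3 and both against DMSO, 4 rises for both against isoxaben, 0 falls for both against PEP3 and 15 interactions. A fit of the compared groups only gives no interaction. The lowest fragment count of a tested gene was 161, for LHCB2.3, and the widest standard error, 0.26, was that of LHCB1.1.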

Other observations

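Of 7 genes of chlorophyll breakdown, 2 fell and 1 rose after isoxaben by limma, while 15.2% of all tested genes fell and 17.3% rose, so that the count called is close to that of any genes. After PEP3 0 fell and 3 rose (0 lower at an unadjusted p under 0.05), while 6.45% of all tested genes fell and 7.84% rose. After both 2 fell and 4 rose, while 14.4% fell and 16.9% rose. Chlorophyll synthesis had 0 rises in these comparisons, also at an unadjusted p under 0.05. SGR1 (AT4G22920, chr4:12016420-12018643), the magnesium dechelatase that starts breakdown, had 13.8, 16.3 and 15.9 FPKM with isoxaben, 11.6, 13.5 and 11.8 FPKM with PEP3, 14.3, 12.5 and 12.1 FPKM with both, and 10.5, 8.29 and 9.58 FPKM with DMSO. It was higher than with DMSO in every treated library, with log2 changes of 0.64 ± 0.10, adjusted p = 0.000228 after isoxaben, 0.35 ± 0.10, adjusted p = 0.034 after PEP3 and 0.42 ± 0.10, adjusted p = 0.00614 after both. SGR2 (AT4G11910, chr4:7156150-7158047), its relative, had 3.05, 4.27 and 3.64 FPKM with isoxaben, 7.15, 8.24 and 9.24 FPKM with PEP3, 8.39, 7.78 and 6.02 FPKM with both, and 2.73, 3.69 and 3.18 FPKM with DMSO, and changed by 1.13 ± 0.14, adjusted p = 0.000152 after PEP3 and 1.00 ± 0.14, adjusted p = 0.000116 after both. NYC1 (AT4G13250, chr4:7684156-7687006), a chlorophyll b reductase, had 77.4, 73.3 and 77.8 FPKM with isoxaben, 116, 122 and 110.3 FPKM with PEP3, 109.7, 94.7 and 90.6 FPKM with both, and 127, 123 and 111 FPKM with DMSO. It was lowest with isoxaben, at -0.65 ± 0.08, adjusted p = 1.85e-05, and NOL, its partner, changed by -0.31 ± 0.08, adjusted p = 0.0089.

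Regulators of photosynthesis genes were lower after isoxaben in 8 of 14 cases, after PEP3 in 2 and after both in 4, while 15.2%, 6.45% and 14.4% of all tested genes were, and 0 rose in these comparisons by limma (1, 0 and 0 higher at an unadjusted p under 0.05). GNC (AT5G56860, chr5:22989216-22991530), a GATA factor, had 8.64, 6.14 and 12.4 FPKM with isoxaben, 16.5, 16.8 and 17.3 FPKM with PEP3, 15.3, 11.1 and 14.4 FPKM with both, and 19.7, 18.9 and 15.4 FPKM with DMSO. It fell after isoxaben (-0.95 ± 0.18, adjusted p = 0.00112) and was at -0.08 ± 0.18, adjusted p = 0.835 after PEP3. SIG6 (AT2G36990, chr2:15537225-15540139), a plastid sigma factor encoded in the nucleus, had 28.8, 22.2 and 26.5 FPKM with isoxaben, 40.5, 35.9 and 36.6 FPKM with PEP3, 31.3, 30.5 and 29.3 FPKM with both, and 52.4, 50.3 and 43.8 FPKM with DMSO, and changed by -0.90 ± 0.09, adjusted p = 6.76e-06 after isoxaben and -0.36 ± 0.09, adjusted p = 0.0194 after PEP3. GLK2 (AT5G44190, chr5:17798262-17800926), a factor named above, had 15.0, 13.2 and 16.1 FPKM with isoxaben, 26.1, 25.2 and 25.0 FPKM with PEP3, 18.9, 22.6 and 20.8 FPKM with both, and 24.1, 21.9 and 23.2 FPKM with DMSO. By limma it changed by -0.61 ± 0.08, adjusted p = 6.24e-05 after isoxaben and by 0.46 ± 0.08, adjusted p = 0.00422 for both against isoxaben. With PEP3 all GLK2 libraries lay above those of DMSO, a difference that was not called. The median change after PEP3 was -0.01 over the 14 regulators, against -0.32 over the 41 photosynthesis genes. GLK1, the relative of GLK2, changed by -0.29 ± 0.09, adjusted p = 0.0308 after isoxaben. SGR2, GLK1 and GLK2 were named after their values were seen.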
